A study of Mus musculus with 6 samples.

Results

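Mitochondrial ribosomal proteins are encoded in the nucleus, made in the cytosol and imported into mitochondria, where they join the mitochondrial ribosomal RNAs in a large and a small subunit. The ribosome they form translates the few mRNAs of the mitochondrial genome, all of which encode subunits of the oxidative phosphorylation complexes. Many of these proteins have counterparts in the bacterial ribosome, and the others are found in mitochondria alone. Their genes are named Mrpl for the large subunit and Mrps for the small one.

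All genes with an annotated symbol of Mrpl or Mrps and a digit were taken, which gave 76 genes, 47 Mrpl and 29 Mrps, of 18193 genes with a probe set of their own. Each gene was read from the probe set with the brightest mean over the 6 arrays, so membership was chosen by symbol and the probe set by mean intensity. The difference between the groups chose neither. All 76 passed the filter on dim probe sets (a mean intensity of at least 39.13, the median of all probe sets), as did 10505 genes in all. Mrpl30 and Mrpl53 were read only by probe sets shared with another gene and are not among the 76.

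The arrays compared Ba/F3-N cells, a mouse bone marrow-derived line transformed with oncogenic NRAS-G12D, after 12 h with 1 µM NADA (N-arachidonoyl dopamine, a lipid that acts on cannabinoid and vanilloid receptors) or with the same volume of vehicle. Both groups carried NRAS-G12D and held 3 samples, each hybridised to its own Affymetrix Mouse Genome 430 2.0 array. The labels do not state whether the line is 1 clone or whether the samples came from separate cultures, so the p-values measure only the spread between these samples, which may be technical.

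Pearson correlations of log2 intensity over the genes tested were 0.9972 to 0.9984 within a group and 0.9354 to 0.9388 between NADA and vehicle arrays. Of 12 pro-B lymphoid markers on the array, which the Ba/F3 lineage could be expected to carry, 3 passed the dim filter (Ptprc, Cd79b and Igll1), while Cd79a, Vpreb1, Pax5, Ebf1 and Rag1 were among the 9 that did not. The summed intensity of all 12, dim ones included, was 6607 to 6914 in NADA samples and 4297 to 4456 in vehicle samples, nearly all of it from Ptprc. The sums that follow likewise take every marker of a list that is on the array, dim or not. Summed markers of myeloid and mast cells (3 of 10 passing) were 600 to 631 in NADA samples and 557 to 563 in vehicle samples, and those of erythroid cells and megakaryocytes (5 of 6) were 936 to 1028 in NADA samples and 926 to 934 in vehicle samples. Within that sum Klf1, Epor and Gp9 were called higher (log2 fold change 1.05, 0.60 and 0.27), Itga2b lower (-0.25) and Pf4 was not called (limma). Markers of T and NK cells (2 of 6) summed to 208 to 212 in NADA samples and 190 to 212 in vehicle samples, and those of fibroblasts, epithelium and endothelium (4 of 11) to 366 to 377 in NADA samples and 372 to 390 in vehicle samples. Their part in the results was not tested.

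Most mRNAs of the mitochondrial ribosome were lower after NADA. In limma, with Benjamini-Hochberg adjustment over the 10505 genes and an adjusted p under 0.05 as the threshold, 66 of the 76 were lower in NADA samples, 7 were not called and 3 were higher (Mrpl39, Mrpl9 and Mrpl24; after scaling to poly-A controls Mrpl39 was called lower and the other two were not called). The contrast was broad: 37.7% of all genes tested were called lower and 35.9% higher. The median log2 fold change of the 76 was -0.58, a median level 1.49-fold lower in NADA samples, against 0.0089 over all genes tested. The quartiles of the members were -0.82 and -0.31, and the full range ran from -1.76 to 0.43. In bulk RNA, less of an mRNA per cell and fewer cells that carry it cannot be told apart.

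The fall was wide but mostly modest. All 3 NADA values lay below all 3 vehicle values for 67 members, against 38.8% of all genes. The decrease was called and at least 1.5-fold for 38 members, against 15.9% of all genes, and at least 2-fold for 12, against 6.06%. The standard error of a member's log2 fold change had a median of 0.040, and the largest adjusted p among the 66 lower members was 0.00186 (limma). On each NADA array 68 of the 76 members lay below every vehicle value, a count that was not made for all genes.

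**Figure D1:**
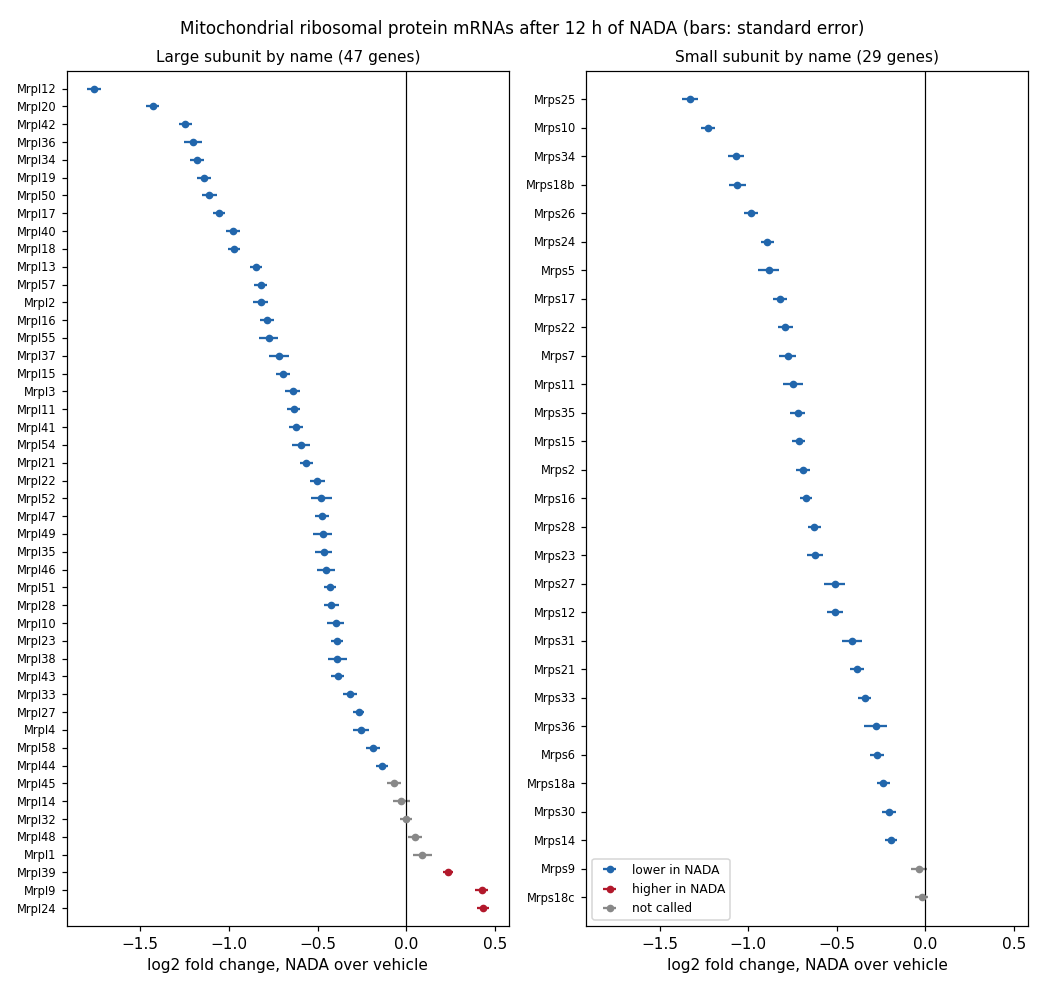
Log2 fold change, NADA over vehicle, of each of the 47 large-subunit genes (left) and 29 small-subunit genes (right), with bars for the limma standard error and colour for the call. Mrpl12 lies lowest at -1.76, 66 genes are lower, and Mrpl39, Mrpl9 and Mrpl24 are higher on the deposited scale, while after scaling to poly-A controls Mrpl39 is called lower and the other two are not called.

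Among large-subunit proteins, Mrpl12 had the lowest log2 fold change. It is the counterpart of the bacterial L7/L12 stalk protein, which recruits translation factors to the ribosome, and in human cells it also binds the mitochondrial RNA polymerase. Mrpl12 had intensities of 437, 444 and 464 in NADA samples, against 1563, 1478 and 1516 in vehicle samples. The groups were far apart and each was tight. Its log2 fold change was -1.76 ± 0.039 (SE, limma adjusted p = 3.01e-15), a level 3.39-fold lower in NADA samples. Mrpl20, whose bacterial counterpart acts early in large-subunit assembly, followed with 425, 430 and 439 in NADA samples, against 1157, 1145 and 1184 in vehicle samples. Its log2 fold change was -1.43 ± 0.038 (SE, limma adjusted p = 1.616e-14).

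By the brightest probe set of each gene, another 4 large-subunit genes stood next in order. Mrpl42, a mitochondria-specific protein, had 717, 741 and 719 in NADA samples, against 1697, 1764 and 1701 in vehicle samples (log2 fold change -1.25 ± 0.035, SE). Mrpl36, the counterpart of a small zinc-binding bacterial protein, had 218, 232 and 232 in NADA samples, against 530, 498 and 543 in vehicle samples (-1.20 ± 0.050). In both genes the highest NADA value was below the lowest vehicle value by more than the spread within either group. Mrpl34, the counterpart of bacterial L34, had 321, 320 and 318 in NADA samples, against 749, 709 and 716 in vehicle samples (-1.18 ± 0.042). Mrpl19, whose bacterial counterpart lies at the interface of the subunits, had 337, 343 and 343 in NADA samples, against 753, 765 and 735 in vehicle samples (-1.14 ± 0.040). The limma adjusted p of these 4 lay between 3.013e-14 and 2.512e-12, and neighbours in this order differed by about 1 standard error.

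The brightest large-subunit probe set, that of Mrpl52, showed a smaller decrease. Mrpl52, a mitochondria-specific protein, had 1888, 1912 and 2321 in NADA samples, against 2850, 2864 and 2771 in vehicle samples. NADA replicate 3 was higher than the other two but still below every vehicle sample. The log2 fold change was -0.48 ± 0.057 (SE, limma adjusted p = 1.331e-06).

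**Figure D2:**
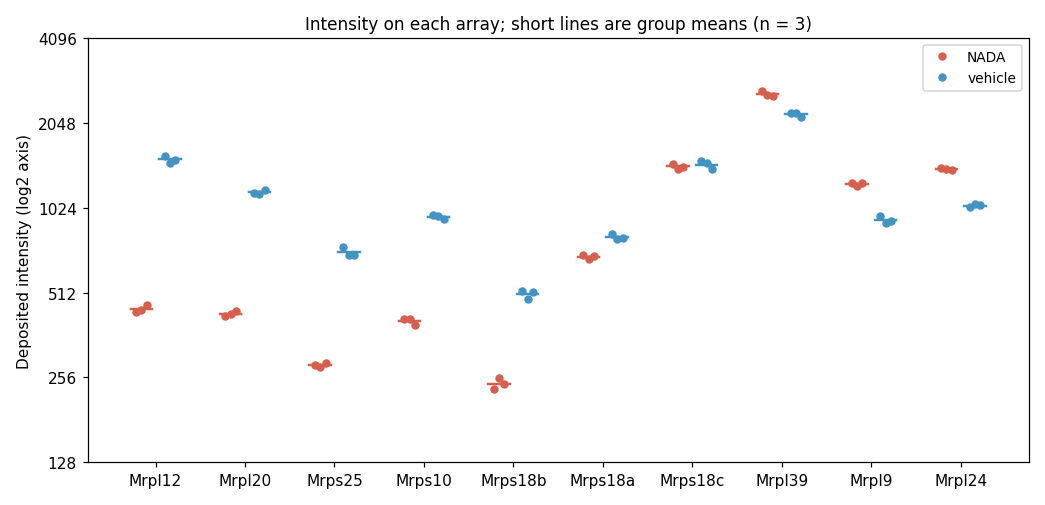
Deposited intensity (log2 axis) on each array for 10 members, with NADA points left of vehicle points and short lines for the group means (n = 3). The NADA and vehicle points are separate in every gene shown except Mrps18c, with NADA below vehicle in 6 genes and above it in Mrpl39, Mrpl9 and Mrpl24, of which Mrpl39 is called lower and the other two are not called after scaling to poly-A controls.

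The promoters of Mrpl12, Mrpl20 and Mrpl36, at ranks 1, 2 and 4 among the lowest large-subunit genes, are shown beside that of Mrpl9. Mrpl9 was one of the 3 higher ones, so that members that moved apart stand side by side. Each stretch holds the 120 bases before the annotated start of the gene, on the gene's own strand, from RefSeq on GRCm38.p6. Capitals mark matches to the NRF1 motif GCGCANGCG, the E-box CACGTG or the YY1 motif AAGATGGC, on either strand.
Mrpl12, chr11:120484517-120484636: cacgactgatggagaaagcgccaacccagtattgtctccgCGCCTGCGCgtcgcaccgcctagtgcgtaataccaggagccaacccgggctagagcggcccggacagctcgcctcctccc
Mrpl20, chr4:155802758-155802877: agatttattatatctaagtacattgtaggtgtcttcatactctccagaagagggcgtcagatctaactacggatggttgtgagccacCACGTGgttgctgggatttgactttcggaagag
Mrpl36, chr13:73330889-73331008: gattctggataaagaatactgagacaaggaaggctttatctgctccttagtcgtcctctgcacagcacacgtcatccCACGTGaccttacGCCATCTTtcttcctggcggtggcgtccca
Mrpl9, chr3:94443216-94443335: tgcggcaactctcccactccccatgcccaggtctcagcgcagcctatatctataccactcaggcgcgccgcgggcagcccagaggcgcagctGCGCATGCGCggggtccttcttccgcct
The NRF1 motif thus occurred both in Mrpl12, the member with the lowest log2 fold change, and in Mrpl9, which was higher on the deposited scale and not called after scaling to poly-A controls. Mrpl42, at rank 3, is not shown. Its YY1 match lay after the start, and it had no match to the NRF1 motif or the E-box. The stretches shown therefore do not stand for the lowest members as a group.

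A promoter was found for 67 of the 76 members, and 5 motifs were searched from 250 bases before to 50 after the start, on both strands. The NRF1 motif was present in 15 of the 67 (22.4%), against 16.1% of the 8566 tested genes with a promoter and 7.03% of all 27025 genes of the table. The YY1 motif was present in 12 (17.9%), 6 of them large-subunit and 6 small-subunit genes, against 5.7% of tested genes and 3.19% of all. These shares are descriptions of the sequence and carry no test.

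The ETS motif CCGGAAGT was also present in 12 (17.9%), against 9.9% of tested genes and 4.31% of all. The E-box was present in 5 (7.5%), against 12.0% of tested genes and 8.09% of all, and the SP1 motif GGGCGG in 34 (50.7%), against 68.4% and 38.2%. Matches to different motifs overlapped in 0 of the members. The median log2 fold change was -0.82 for the 5 members with an E-box and -0.49 for those without. It was -0.39 with the NRF1 motif and -0.59 without it, and -0.61 with the YY1 motif and -0.48 without it. For the ETS motif it was -0.45 with and -0.56 without, and for the SP1 motif -0.70 with and -0.48 without. The members with an NRF1 motif spanned almost the full range, from -1.76 to 0.43.

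In the small subunit, Mrps25, a mitochondria-specific protein, had the lowest log2 fold change. Its intensities were 283, 278 and 289 in NADA samples, against 741, 698 and 696 in vehicle samples, and its log2 fold change was -1.33 ± 0.044 (SE, limma adjusted p = 1.868e-13). Mrps10, the counterpart of bacterial S10 in the head of the subunit, had 413, 413 and 394 in NADA samples, against 966, 957 and 935 in vehicle samples (-1.23 ± 0.040, SE, limma adjusted p = 1.61e-13). Both were well separated between the groups.

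The next 4 were Mrps34, Mrps18b, Mrps26 and Mrps24. Mrps34, a mitochondria-specific protein, had 573, 542 and 514 in NADA samples, against 1146, 1151 and 1115 in vehicle samples (log2 fold change -1.07 ± 0.043, SE). Mrps18b, a relative of bacterial S18, had 232, 255 and 242 in NADA samples, against 518, 487 and 516 in vehicle samples (-1.06 ± 0.050). These 2 genes had nearly the same log2 fold change. Mrps26, another mitochondria-specific protein, had 441, 442 and 439 in NADA samples, against 850, 878 and 884 in vehicle samples (-0.98 ± 0.038). Mrps24, the counterpart of bacterial S3 near the entry of the mRNA channel, had 555, 549 and 559 in NADA samples, against 1037, 1033 and 1016 in vehicle samples (-0.89 ± 0.036). The limma adjusted p of these 4 lay between 1.374e-12 and 1.181e-11.

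At the other end of the small subunit, decreases were small or not called. Mrps14, the brightest small-subunit gene by mean intensity and the counterpart of bacterial S14, had 1613, 1519 and 1518 in NADA samples, against 1795, 1784 and 1745 in vehicle samples. The groups did not overlap, and the log2 fold change was -0.20 ± 0.034 (SE, limma adjusted p = 7.486e-05). Mrps9, the counterpart of bacterial S9, had 611, 561 and 619 in NADA samples, against 605, 603 and 624 in vehicle samples. Its groups overlapped, and the log2 fold change of -0.034 ± 0.045 (SE) was not called. Mrps12, the counterpart of the bacterial decoding-centre protein S12, was lower, with 435, 414 and 399 in NADA samples, against 618, 584 and 573 in vehicle samples (-0.51 ± 0.047, SE, limma adjusted p = 5.042e-08).

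The 3 Mrps18 genes encode related proteins that hold different places in the ribosome. Mrps18c stands in the usual S18 position of the small subunit, Mrps18b elsewhere in the small subunit, and Mrps18a in the large subunit despite its name. Mrps18c had 1468, 1406 and 1430 in NADA samples, against 1496, 1471 and 1403 in vehicle samples, so the groups overlapped (log2 fold change -0.021 ± 0.035, SE, not called by limma). Mrps18a had 694, 671 and 692 in NADA samples, against 828, 795 and 802 in vehicle samples (-0.24 ± 0.038, SE, limma adjusted p = 3.003e-05). The family thus ranged from no call to a decrease of about 1 log2 unit in Mrps18b.

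Within an array, and relative to the vehicle mean, the log2 difference of Mrps18b minus Mrps18c was -1.14 to -0.94 in NADA samples and -0.072 to 0.079 in vehicle samples. The difference of Mrps18b minus Mrps18a was -0.91 to -0.72 in NADA samples and -0.034 to 0.037 in vehicle samples. For the Mrpl12 and Mrps12 pair, which share the number 12 but neither subunit nor role, it was -1.35 to -1.14 in NADA samples and -0.022 to 0.044 in vehicle samples. The groups did not overlap in any of the 3 pairs. An exact two-sided permutation test gave p = 0.1 for each, the smallest that 3 against 3 allows, and 0.1 after adjustment over the 3 pairs. Such a design cannot reach 0.05.

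The other Mrps names that do not match the small subunit were Mrps30 and Mrps36. Mrps30, found in the large subunit, had 637, 650 and 610 in NADA samples, against 741, 719 and 727 in vehicle samples (log2 fold change -0.20 ± 0.040, SE, limma adjusted p = 0.0002195). Mrps36, since described as a subunit of the 2-oxoglutarate dehydrogenase complex, had 446, 431 and 364 in NADA samples, against 526, 490 and 485 in vehicle samples (-0.28 ± 0.065, SE, limma adjusted p = 0.001029). In both genes the NADA samples lay below the vehicle samples, and NADA replicate 3 was lowest.

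The large and small subunits were compared next. Of the 47 large-subunit genes by name, 39 were lower, 3 higher and 5 not called, with a median log2 fold change of -0.48. Of the 29 small-subunit genes, 27 were lower, 0 higher and 2 not called, with a median of -0.68. Of all genes tested, 37.7% were lower and 35.9% higher. The large-subunit genes were the more spread, with an SD over genes of 0.47 against 0.34 in the small subunit, and held both ends of the range.

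The difference between the subunit medians, large minus small, was 0.20 on the log2 scale. With means in place of medians it was 0.072, from -0.55 in the large and -0.62 in the small subunit. With Mrps18a and Mrps30 counted in the large subunit and Mrps36 left out, the median was -0.47 over 49 large-subunit genes and -0.70 over 26 small-subunit genes. No p is given for these scores over members.

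On each array, every gene was set against its own mean over the 6 arrays. The median of the large subunit was then -0.21, -0.25 and -0.29 in NADA samples, against 0.27, 0.26 and 0.25 in vehicle samples. The median of the small subunit was -0.32, -0.33 and -0.35 in NADA samples, against 0.35, 0.32 and 0.32 in vehicle samples. Large minus small was therefore 0.11, 0.074 and 0.057 in NADA samples, against -0.081, -0.065 and -0.078 in vehicle samples, without overlap between the groups.

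**Figure D3:**
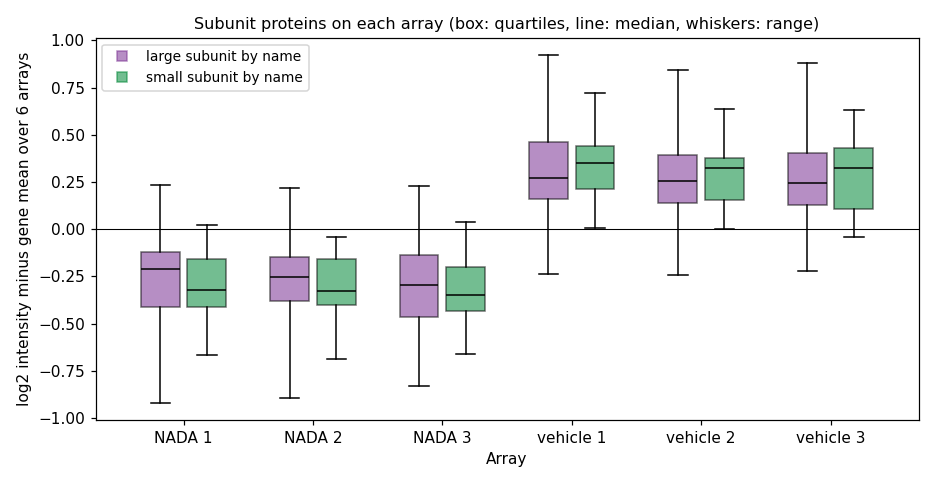
Log2 intensity of the 47 large-subunit and 29 small-subunit genes on each array, relative to each gene's mean over the 6 arrays (box, quartiles; line, median; whiskers, range). Both subunits sit below 0 on the NADA arrays and above 0 on the vehicle arrays, and the small-subunit median lies further from 0 on every array. By the centring, the vehicle side largely mirrors the NADA side.

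Proteins with a bacterial counterpart and mitochondria-specific proteins were mostly lower. Of 45 members with a bacterial counterpart, 38 were lower, 2 higher and 5 not called (median log2 fold change -0.63). Of 30 mitochondria-specific members, 27 were lower, 1 higher and 2 not called (median -0.49). Shares over all genes tested were 37.7% lower and 35.9% higher. The mitochondria-specific class includes Mrps18a and Mrps18b, although both are related to Mrps18c, which is counted with a bacterial counterpart. Among the small-subunit genes by name, which include Mrps18a and Mrps30, all 12 mitochondria-specific members were lower (median -0.67), as were 14 of the 16 with a bacterial counterpart (median -0.68).

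The members named in this paragraph by their place in the ribosome were chosen after their values were seen, except those already described. Around the stalks, Mrpl11 and Mrpl10, which form the base on which Mrpl12 sits, had log2 fold changes of -0.63 ± 0.037 and -0.40 ± 0.048 (SE), while Mrpl1 of the opposite stalk was not called. In the central protuberance, Mrpl18 and Mrpl40 had -0.97 and -0.98, Mrpl46, Mrpl38 and Mrpl27 had -0.45, -0.39 and -0.27, and Mrpl48 was not called. Mrpl58, a peptidyl-tRNA hydrolase built into the same region, was lower by less, at -0.19 ± 0.039 (SE, limma adjusted p = 0.0004041). Around the exit of the peptide tunnel, Mrpl17 had -1.05, Mrpl22 -0.50, Mrpl47 -0.47 and Mrpl23 -0.39, Mrpl45 was not called and Mrpl24 was higher on the deposited scale, though not called after scaling to poly-A controls. These genes do not cover each region, and nothing was tested by region. In the small subunit, Mrps5 and Mrps7, counterparts of bacterial S5 and S7, had -0.88 and -0.78, and Mrps2 had -0.69.

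The 3 members called higher on the deposited scale were large-subunit genes, and after scaling to poly-A controls 1 of them was called lower and the other two were not called. Mrpl24, the counterpart of bacterial L24 at the tunnel exit, had 1420, 1404 and 1391 in NADA samples, against 1026, 1053 and 1044 in vehicle samples. The groups did not overlap, and the log2 fold change was 0.43 ± 0.033 (SE, limma adjusted p = 5.016e-09), but -0.15 and not called after scaling to poly-A controls (limma adjusted p = 0.262). Mrpl9, the counterpart of bacterial L9, had 1252, 1223 and 1256 in NADA samples, against 953, 905 and 920 in vehicle samples (0.43 ± 0.035, SE, limma adjusted p = 1.508e-08, but -0.15 and not called after that scaling). Mrpl39, a mitochondria-specific protein, had 2644, 2571 and 2544 in NADA samples, against 2215, 2221 and 2149 in vehicle samples (0.24 ± 0.030, SE, limma adjusted p = 2.553e-06, but -0.34 and called lower after that scaling). In each gene every NADA sample was above every vehicle sample as deposited.

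Besides Mrps9 and Mrps18c, 5 large-subunit genes were not called. All 7 were called lower after scaling to poly-A controls (log2 fold change -0.65 to -0.49), as were 76% of all genes. Mrpl45 was called lower after centring on array medians (-0.10, limma adjusted p = 0.026), and Mrpl48 and Mrpl32 were called higher after quantile normalization (0.13 and 0.083, limma adjusted p = 0.00657 and 0.0204). Mrpl32, the counterpart of bacterial L32, which is processed by the m-AAA protease before it joins the ribosome, had 1398, 1373 and 1344 in NADA samples, against 1365, 1377 and 1372 in vehicle samples. The 2 group means were all but equal. Mrpl45, which holds the ribosome at the inner membrane, had 871, 866 and 817 in NADA samples, against 896, 895 and 886 in vehicle samples, so that its groups did not overlap although limma gave an adjusted p of 0.1166. Mrpl14, Mrpl48 and Mrpl1 had log2 fold changes of -0.027 ± 0.050, 0.051 ± 0.040 and 0.091 ± 0.054 (SE), with limma adjusted p of 0.6478, 0.2678 and 0.1382.

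A second reading came from other probe sets of the same genes, which the choice of the brightest one left unused. There were 61 such probe sets above the dim limit, over 34 members, of which 45 were called lower, 2 higher and 14 not called by limma over all 18951 passing probe sets, where 38.3% were called lower. Of the 52 that belonged to genes called lower, 43 were lower, 0 higher and 9 not called. Sizes differed more than directions, so the order of the members depends on the probe set read. The examples that follow were chosen after their values were seen. Mrpl15 had -0.70 by its brightest probe set and -1.40 by another, and Mrpl49 had -0.47 and -1.10. In the other direction, Mrpl34 had -1.18 by its brightest and -0.69 by a dimmer one, and Mrps10 had -1.23 and -0.29.

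Mrpl9 had another probe set with a log2 fold change of 0.43, close to its brightest one, and one more with 0.035 that was not called. Mrpl39 had a second probe set with 0.037, also not called, so its increase rested on 1 probe set. Mrps9, not called by its brightest probe set, had 3 others, 1 called higher at 0.15 and 2 not called at 0.049 and -0.044. Mrps14, called lower by its brightest, had another at 0.0038 that was not called. Mrpl1, not called by its brightest probe set, had another at -0.42, called lower, and Mrpl48 another at -0.13. Probe sets of one gene read different stretches of its transcripts, and what separates these readings was not tested.

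**Figure D4:**
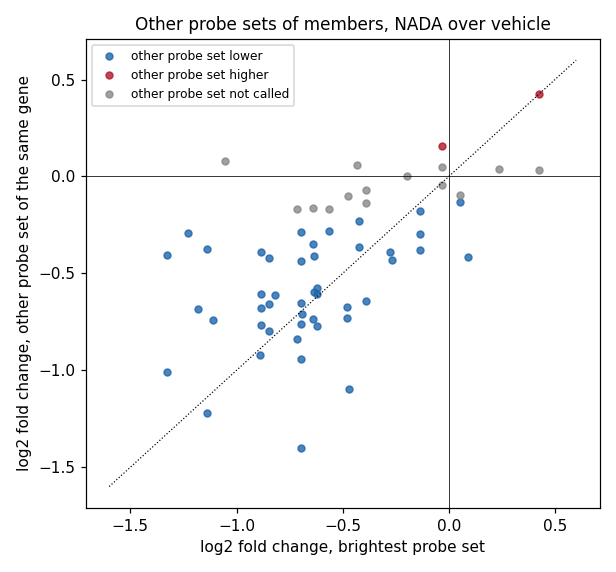
Log2 fold change of 61 other probe sets of 34 members (vertical axis) against the brightest probe set of the same gene (horizontal axis), with the dotted line where both are equal. Of the 61, 45 were called lower and 2 higher, and none of those from genes called lower was called higher.

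The shared probe sets were read as log2 differences without a test. The brighter one shared by Mrpl30 and Gm6238 had 2490, 2546 and 2568 in NADA samples, against 2678, 2662 and 2664 in vehicle samples (log2 difference -0.074). The one shared by Mrpl53 and Ccdc142 had 733, 720 and 697 in NADA samples, against 1243, 1200 and 1201 in vehicle samples (-0.76). A probe set shared by Mrps34 and Nme3 had 153, 159 and 141 in NADA samples, against 142, 138 and 142 in vehicle samples (0.10). Its difference runs opposite to that of the only probe set Mrps34 has of its own (-1.07). Which of the 2 genes on each shared probe set gave the signal cannot be told apart.

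Several members share a promoter region with a gene on the other strand. Mrpl46 and Mrps11, a large-subunit and a small-subunit gene, start 42 bases apart in opposite directions, and both were lower (log2 fold change -0.45 ± 0.052 and -0.75 ± 0.056, SE). The 41 bases between the starts are shown, as only this pair of the 67 members with a promoter starts in opposite directions within 300 bases. They are given on the strand of Mrps11 from RefSeq on GRCm38.p6 and hold a match to the SP1 motif GGGCGG, left in lower case, and none to the NRF1, E-box, YY1 or ETS motif.
Mrpl46 and Mrps11, chr7:78783090-78783130: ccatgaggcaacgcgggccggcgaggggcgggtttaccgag
In all, 20 members had a gene starting in the opposite direction within 300 bases.

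Of 12 lower members with such a neighbour that was tested and not itself a member, 7 neighbours were lower, 2 higher and 3 not called, beside 37.7% lower and 35.9% higher over all genes tested. The 2 that were higher were Klc4 beside Mrpl2 and Zfp189 beside Mrpl50, named after their values were seen. Klc4, a kinesin light chain, had a log2 fold change of 1.22 beside -0.82 for Mrpl2, and Zfp189, a zinc finger protein, had 0.71 (0.13 and not called after scaling to poly-A controls) beside -1.11 for Mrpl50. These pairs moved in opposite directions from starts 141 and 93 bases apart.

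Other parts of mitochondrial translation were read from lists of known genes. Proteins of the mitochondrial ribosome that carry other names gave 4 lower of 4 tested, beside 37.7% of all genes. After quantile normalization 3 of 4 were lower, beside 35.6% of all genes. Gadd45gip1, a large-subunit protein, had 89.5, 87.5 and 79.4 in NADA samples, against 210, 198 and 200 in vehicle samples (log2 fold change -1.25 ± 0.063, SE, limma adjusted p = 3.339e-11). Chchd1, Ptcd3 and Dap3, all of the small subunit, had -0.95 ± 0.034, -0.71 ± 0.042 and -0.13 ± 0.035 (SE), each called lower.

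Of 25 tested genes for assembly of the mitochondrial ribosome and maturation of its RNA, 13 were lower, 4 higher and 8 not called (median log2 fold change -0.095), beside 37.7% lower and 35.9% higher over all genes. After quantile normalization 12 were lower and 8 higher, beside 35.6% and 38% of all genes. After scaling to poly-A controls 24 were lower and 0 higher (median -0.67), beside 76% and 7.05% of all genes. C1qbp, a matrix protein linked to mitochondrial translation, had 4919, 4875 and 4496 in NADA samples, against 10400, 10224 and 9965 in vehicle samples (-1.10 ± 0.032, SE, limma adjusted p = 5.016e-14). Noa1, a GTPase of small-subunit assembly, Fastkd2, an RNA-binding protein of large-subunit assembly, and Rcc1l, an assembly factor, had -0.995 ± 0.058, -0.94 ± 0.049 and -0.81 ± 0.058 (SE). The list as a whole held fewer lower genes than the ribosomal proteins, at 52% beside 86.8%, a difference that was not tested.

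Of 13 mitochondrial translation factors, 9 were lower, 3 higher and 1 not called (median -0.16), beside the same shares over all genes. After quantile normalization 7 were lower and 3 higher, beside 35.6% and 38% of all genes. After scaling to poly-A controls 12 were lower and 0 higher (median -0.74), beside 76% and 7.05% of all genes. Tsfm, the elongation factor Ts, had -1.01 ± 0.048 and Tufm, the elongation factor Tu, -0.43 ± 0.047 (SE), while Mtif3, an initiation factor, was higher at 0.74 ± 0.057 and not called at 0.17 after scaling to poly-A controls. Lrpprc, which stabilises mitochondrial mRNAs, had -0.66 ± 0.049. For transcription of the mitochondrial genome, 4 of 5 genes were lower and 1 higher, with Tfam at -0.58, the polymerase Polrmt at -0.53, Tfb2m at -0.41 and Mterf1a at 0.48, which was -0.099 and not called after that scaling. The RNAs made by the mitochondrial genome itself were not analysed here.

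The same reading was made of 2 neighbouring gene groups. Of 77 nuclear subunits of oxidative phosphorylation, 60 were lower, 7 higher and 10 not called, with a median log2 fold change of -0.25, and 1 was lower by at least 2-fold. Shares over all genes tested were 37.7% lower, 35.9% higher and 6.06% lower by at least 2-fold. Of 45 cytosolic ribosomal proteins, 12 (26.7%) were lower, 15 (33.3%) higher and 18 not called, both shares below those of all genes. Their median was 0.032. It turned to -0.55 with 44 lower and 0 higher after scaling to poly-A controls, and to -0.0041 after centring on array medians. Under that poly-A scaling, oxidative phosphorylation had a median of -0.82 with 74 lower and 0 higher, and 76% of all genes were lower. The mitochondrial ribosomal proteins lay lower than both on this description, and no test of the difference between the lists was made.

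**Figure D5:**
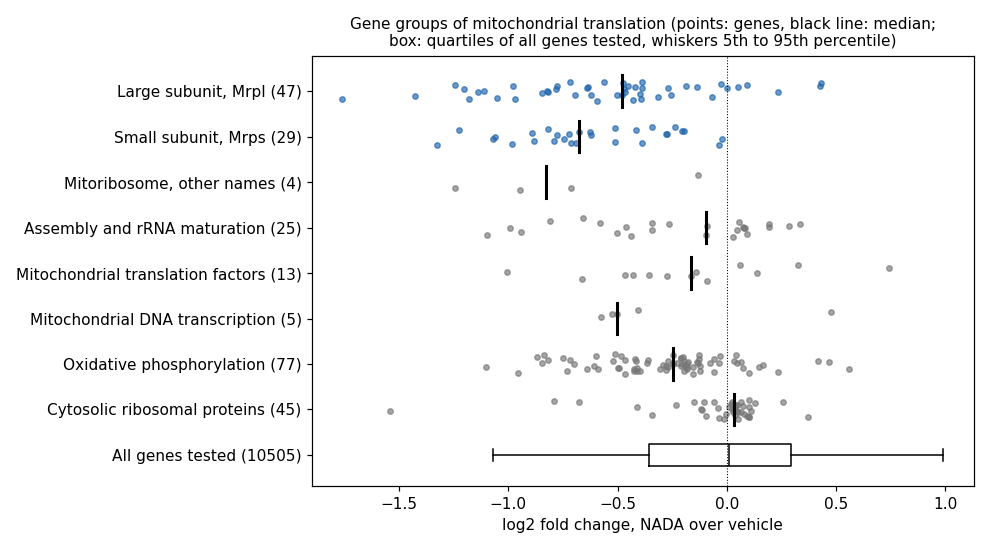
Log2 fold change, NADA over vehicle, of single genes (points) in each gene group, with a black line at the group median and, for all 10505 genes tested, a box at the quartiles with whiskers from the 5th to the 95th percentile. The medians of the large (-0.48) and small (-0.68) subunits lie below those of oxidative phosphorylation (-0.25) and cytosolic ribosomal proteins (0.032, and -0.55 after scaling to poly-A controls).

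Control probe sets on the arrays also differed between the groups. The bacterial poly-A controls, which are usually added to the RNA before labelling, averaged 8.72 ± 0.21 log2 units in NADA samples and 8.14 ± 0.014 in vehicle samples (SD, n = 3 each). The hybridization controls averaged 10.1 ± 0.051 in NADA samples and 9.93 ± 0.096 in vehicle samples, and the 3' minus 5' difference of Actb, a measure of RNA integrity, 1.06 ± 0.048 in NADA samples and 0.67 ± 0.040 in vehicle samples (SD, n = 3 each). Each of the 3 measures separated the groups, with an exact permutation p of 0.1, the smallest that 3 against 3 allows.

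Scaled to the poly-A controls, the median log2 fold change of all genes was -0.57 and that of the members -1.16. Relative to all genes the members lay at -0.59 on both scales. This was fixed in advance, as the scaling shifts every gene of an array by the same amount. After the scaling 74 members were called lower and 0 higher (limma), against 76% of all genes lower and 7.05% higher. The part of RNA quality and labelling in the members' decrease was not tested.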

How the data were processed

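RNA from 6 samples was measured on Affymetrix Mouse Genome 430 2.0 arrays after biotin labelling, per the labels' protocols. The authors deposited 1 linear intensity per probe set and array, from 2.19 to 20113. The submitters' processing notes name MAS5 and RMA without saying which step each did, and the values were used as deposited. GEO's platform annotation paired 34945 of 45101 probe sets with 1 gene, 932 with several and 9160 with none (64 were controls). Probe sets with a mean intensity of at least 39.13 were kept, the brightest was taken per gene, and log2 values of 10505 genes were fitted with limma 3.58.1 in R 4.3.3 (lmFit, eBayes with an intensity trend, no covariate), with Benjamini-Hochberg adjustment over all of them. Log2 fold changes are NADA minus vehicle. In simulated data on 10505 genes, 50 genes were changed at each of several folds. Of these, 54% changed 1.2-fold, 94% changed 1.5-fold and 100% changed 2-fold were recovered, and 3.55% of 169 calls were false. Far more genes were called on the real arrays (37.7% lower and 35.9% higher), so these shares need not hold for them. The number of arrays limits the precision. Named members are, per subunit, the 6 lowest and 3 highest log2 fold changes, the brightest, all those called higher or not called, and Mrpl12, Mrps12, Mrps18a, Mrps18b, Mrps18c, Mrps30 and Mrps36, with up to 4 genes of smallest p per list of mitochondrial translation genes. The members and lists were chosen with earlier results of these data known. Alternatives covered scaling, low values, the dim filter, probe-set choice, weights, the replicate block and single arrays. Figures used matplotlib 3.10.9 in Python 3.11.15.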

Additional observations from a re-analysis of the deposited data

How the results depend on the processing

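The count of lower members (66) stayed at 66 when any single array was left out, against 36% to 37.3% of all genes. The count of higher members stayed at 3, against 34% to 36.5% of all genes. The lower members numbered 25 of 34 with the second-brightest probe set, against 37.4% of all genes, and 38 with a minimum of 1.5-fold, against 15.9%. The higher members numbered 5 after quantile normalization, 0 after scaling to poly-A controls and 0 with a minimum of 1.5-fold. The shares of all genes called higher under these settings were 38%, 7.05% and 13.1%. The members' median log2 fold change of -0.58 became -0.52 after quantile normalization, -0.61 after centring on array medians, -1.16 after scaling to poly-A controls, -0.54 with 32 added before log2, -0.53 with the mean of passing probe sets and -0.51 with the second-brightest probe set. Without single arrays it ran from -0.58 to -0.55. Large minus small, 0.20, became 0.17 after quantile normalization, 0.14 with 32 added, 0.17 with the second-brightest probe set, 0.23 with subunits as in structures and 0.072 with means. Without single arrays it ran from 0.16 to 0.22. Scaling to poly-A controls gave the opposite sign for Mrpl48 (-0.53), Mrpl1 (-0.49) and Mrpl39 (-0.34), called lower, and for Mrpl9 (-0.15) and Mrpl24 (-0.15), not called. Quantile normalization turned Mrpl32 (0.083). The second-brightest probe set turned Mrpl48 (-0.13), Mrpl1 (-0.42), Mrps14 (0.0038) and Mrps9 (0.15). Leaving out probe sets of types x and s turned Mrpl48 (-0.13), and the mean of probe sets turned Mrpl1 (-0.16). Only 34 members have a second probe set, which bounds the count of 25, and the other causes were not tested. With the replicate block, 66 members were lower and 3 higher, against 37.7% and 36% of all genes. The median was then -0.58, and no call of a named member changed. The numbers gave no clear sign of pairing, as same-numbered residuals correlated at 0.16, -0.099 and 0.019 and not every sample correlated best with its own number. With 3 arrays per group such values cannot exclude a pairing. The poly-A difference was 0.58, and 0.70 on its 3' probe sets alone.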
